A study of Mus musculus with 12 samples.

Results

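Clip2 and 8 genes of the microtubule plus end were followed in the cortex of mice that carry the Williams–Beuren complete deletion (CD). The members were chosen by symbol and by role. They were Clip2, which lies inside the deletion, its paralogues Clip1, Clip3 and Clip4, the CLIP-associated genes Clasp1 and Clasp2, and the end-binding genes Mapre1, Mapre2 and Mapre3. All 9 were found among the 17202 genes of the table, each with 1 entry, and all 9 passed the minimum mean normalized count of 10. CD mice are heterozygous for a deletion of the stretch of chromosome 5 from Gtf2i to Fkbp6, and WT mice are wild-type. Each library was made from total RNA of dissected cortex, frontal cortex by the methods, so all cell types of the tissue are pooled in each value.

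The 12 male mice formed 4 groups of 3. VEH-WT and VEH-CD mice received vehicle in the drinking water, water with DMSO by the methods, although the labels call them untreated. VERCUR-WT and VERCUR-CD mice drank curcumin, given in the labels as 60 mg/kg/day, together with verapamil, a calcium channel blocker given there as 10 mg/kg/day. The methods give the same dose of curcumin, a lower dose of verapamil and a younger age at sacrifice than the labels do. The labels put the start at 8 weeks, the duration at 1 month and the age at sacrifice at 16 weeks, which cannot all hold, and the strain as C57Bl6 in all groups. By the methods, the CD line was crossed with Thy1-YFP mice, which express a yellow fluorescent protein in part of their neurons. Mice are named here by group and replicate number.

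Microtubules grow at their plus ends, where a shifting set of proteins collects as long as growth goes on. End-binding (EB) proteins, encoded by the Mapre genes, recognise the growing end and recruit the others. CLIP proteins carry CAP-Gly domains that bind EB proteins and the tyrosinated tail of tubulin, and CLASP proteins, first found as partners of CLIPs, hold ends at the cell cortex and slow their shrinkage. In neurons these proteins take part in axon growth, dendrite shape and the capture of cargo.

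On GRCm38, Clip2 (ENSMUSG00000063146) spans chr5:134489383-134552434 on the minus strand, with 17 blocks of exon. The 250 bases upstream of its RefSeq start (GRCm38.p6, chr5:134552435-134552684, minus strand) lie in the deleted stretch, so a CD mouse keeps them on 1 chromosome only. They are printed beside the same window of Clip3 (chr7:30291445-30291694, plus strand), the paralogue with the highest level and 2 intact copies. Both are read 5′ to 3′ along the gene, and capitals mark the GC box, searched as GGGCGG on either strand, where the opposite strand reads CCGCCC.
Clip2: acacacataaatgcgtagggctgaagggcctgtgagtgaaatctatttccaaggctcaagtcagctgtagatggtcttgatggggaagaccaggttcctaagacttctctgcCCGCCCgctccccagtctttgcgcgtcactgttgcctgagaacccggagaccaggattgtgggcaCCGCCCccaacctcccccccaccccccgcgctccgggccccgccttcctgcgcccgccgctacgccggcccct
Clip3: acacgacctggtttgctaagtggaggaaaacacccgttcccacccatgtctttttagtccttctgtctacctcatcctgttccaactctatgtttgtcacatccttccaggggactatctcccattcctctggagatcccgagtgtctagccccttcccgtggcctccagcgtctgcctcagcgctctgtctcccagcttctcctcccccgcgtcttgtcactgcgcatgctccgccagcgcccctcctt
The Clip2 window held 2 GC boxes, 16 CpG dinucleotides and a GC content of 63.2%. The Clip3 window held 0 GC boxes, 11 CpG and 57.2% GC. Neither held TATAAA. Over the 32851 windows of 250 bases in the same RefSeq table, 32.7% held the GC box, 12.4% held TATAAA on either strand, and the medians were 52.4% GC and 6 CpG, so both windows had more CpG and more GC than the median. A window was found for 7 of the 9 members.

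Reads counted in genes, recovered from the steps of the deposited values, ran from 40287647 to 56480948 per mouse, and the least covered member, Clip4, had at least 1810 reads in every mouse. The markers of excitatory cortical neurons were present in all 12 mice. VERCUR-CD 2 stood apart from its group, with a median absolute deviation from the group mean of 0.132 on the log2 scale against 0.0596 to 0.105 in the other mice, and with a summed astrocyte marker count of 233138 against 127641 to 179781. The summed striatal marker count was uneven, from 5395 to 25455, and was highest in 1 mouse of each group (VERCUR-WT 3, VEH-CD 1, VEH-WT 3 and VERCUR-CD 1). The part of these marker sums in the results was not tested.

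Clip2, which encodes a CLIP protein found mainly in brain, was the one member that differed between CD and WT mice. Its normalized counts were 11112, 12255 and 10653 in VEH-WT and 5178, 5645 and 5423 in VEH-CD. They were 10344, 11386 and 10337 in VERCUR-WT and 5065, 4484 and 4840 in VERCUR-CD. All 6 CD mice lay far below all 6 WT mice, with nothing in between. Group means were 11340 ± 825 (SD, n = 3) in VEH-WT, 5415 ± 234 in VEH-CD, 10689 ± 603 in VERCUR-WT and 4796 ± 293 in VERCUR-CD.

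Relative to VEH-WT, Clip2 stood at 47.8% in VEH-CD, 94.3% in VERCUR-WT and 42.3% in VERCUR-CD. Since the gene is deleted on 1 chromosome, a lower level is what the design fixes, and it serves here as a check of the labels. The log2 fold change (limma) was −1.06 (95% interval −1.21 to −0.91) for VEH-CD against VEH-WT, with a Benjamini-Hochberg adjusted p of 4.88e-06. It was −1.16 (−1.31 to −1.01) for VERCUR-CD against VERCUR-WT, in mice that the first comparison did not use, with an adjusted p of 1.82e-06 by limma. Averaged over both treatments it was −1.11 (SE 0.05, interval −1.22 to −1.004), adjusted p = 4.42e-08 by limma. In bulk tissue, fewer cells that express a gene and less RNA per cell cannot be told apart.

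Of the 9 members, 1 was called in each of these 3 genotype comparisons, and it was Clip2 each time, where called means an adjusted p under 0.05 in limma over 17111 genes. Over all genes, 0.257% were called for VEH-CD against VEH-WT, 0.146% for VERCUR-CD against VERCUR-WT and 0.38% for the averaged comparison. Of the other 8 members, 0 were called and 0 reached an unadjusted p under 0.05 in any of the 7 comparisons, and limma voom on the recovered reads called 0 of them too. The share of all genes with an unadjusted p under 0.05 was 11.8%, 4.1% and 9.64% in the 3 genotype comparisons. The plot of the 9 genes in each mouse shows the members on a common scale.

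**Figure D1:**
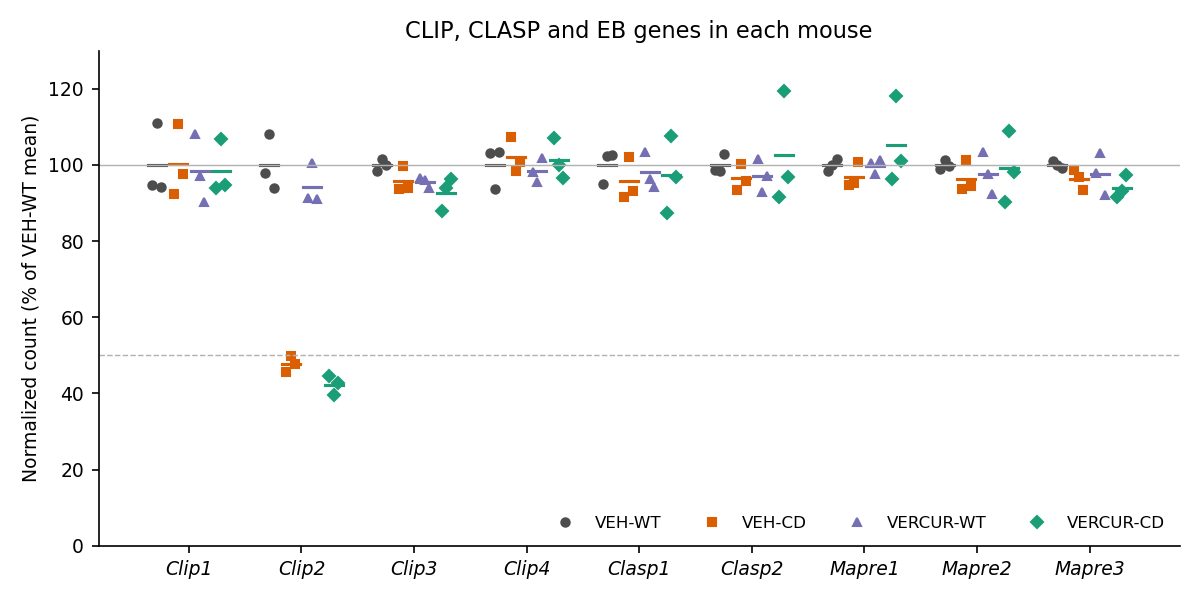
Normalized counts of the 9 genes in each of the 12 mice, as a percent of the VEH-WT mean of the same gene (y axis). Points are mice, coloured by group, and short bars are group means. The dashed line marks 50%. Clip2 lies between 39.5% and 49.8% in the 6 CD mice, while the other 8 genes stay between 87.5% and 119% in all 12 mice.

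Gm42884, a gene known by its model name only, is annotated on the opposite strand across the start of Clip2 (chr5:134552057-134558495) and shares 313 bases with its exons, 6.03% of their length. It lies inside the deleted stretch, so CD mice are heterozygous for it as well, and a lower level is fixed by the design. Its mean normalized counts were 36.1 in VEH-WT, 18.7 in VEH-CD, 33.4 in VERCUR-WT and 11.8 in VERCUR-CD. The highest single value was 1.08% of the lowest Clip2 value. Whether the counting used strand is not given in the sources used here, so reads in the shared bases may belong to either gene. No other member overlapped a gene of the table.

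The size of the fall in Clip2 was compared with that of 18 other listed genes of the deletion, all of them tested. Gm42884 was not on that list. For each mouse, the median log2 value of those genes relative to VEH-WT was subtracted from that of Clip2. The resulting difference was −0.21, −0.03 and −0.15 in VEH-CD and −0.17, −0.27 and −0.21 in VERCUR-CD. It was −0.02, 0.07 and −0.04 in VEH-WT and −0.12, −0.06 and −0.11 in VERCUR-WT. CD mice tended to lie lower, and 1 of them, VEH-CD 2, lay within the range of the WT mice. The means were −0.17 in CD and −0.05 in WT, a difference of −0.13, with p = 0.01 in an exact two-sided permutation test over 400 relabelings within treatment (smallest possible p 0.005).

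Within treatments, this difference was −0.13 for the VEH mice and −0.12 for the VERCUR mice, where each comparison of 3 against 3 mice cannot go below p = 0.10 in an exact test. Ordered from the lowest log2 fold change, Clip2 had rank 3 of the 19 deleted genes in the VEH comparison and rank 4 in the VERCUR and averaged ones. Fzd9, a Wnt receptor gene, was lowest in all 3 (averaged log2 −1.36) and the median of the other deleted genes was −0.98 in the averaged comparison. The permutation test was run for Clip2 only, so it does not say whether other deleted genes lie as far from the median. The genes share the libraries and the chromosome segment, and their exon lengths and levels differ.

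**Figure D2:**
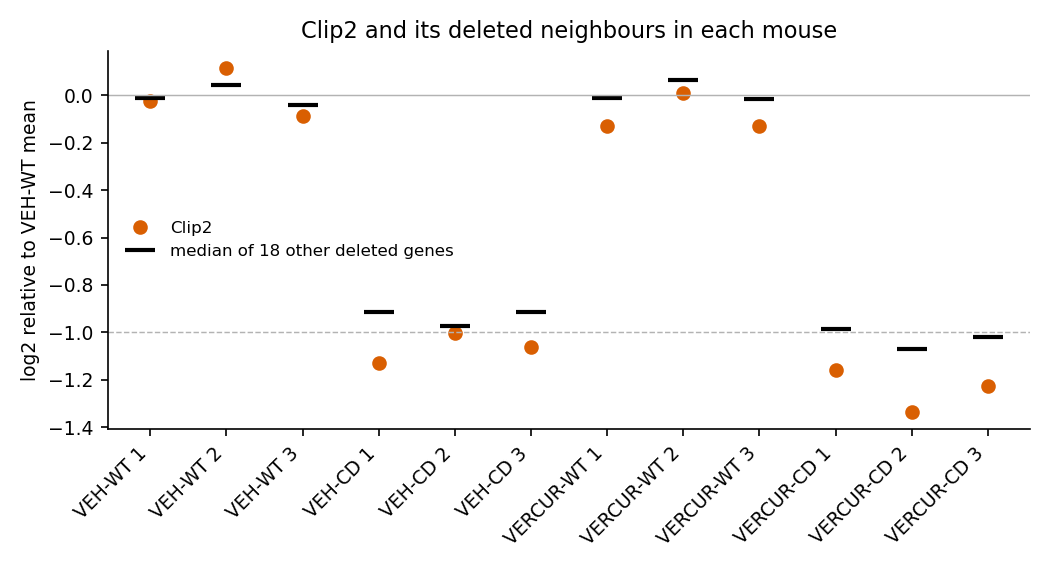
log2 level of Clip2 (points) and median log2 level of the 18 other deleted genes (bars) in each of the 12 mice, both relative to the VEH-WT mean. The dashed line marks −1, a level of 50%. In 5 of the 6 CD mice the Clip2 point lies visibly below the bar, with VEH-CD 2 closest at −0.03.

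The paralogues of Clip2 carry the same CAP-Gly domains and sit elsewhere in the genome, Clip1 also on chromosome 5 (chr5:123577795-123684618) but outside the deletion, Clip3 on chromosome 7 (chr7:30291728-30308367) and Clip4 on chromosome 17 (chr17:71768473-71864273). Clip1, the founding member of the family, had means of 6513 ± 625 in VEH-WT, 6528 ± 617 in VEH-CD, 6417 ± 587 in VERCUR-WT and 6417 ± 470 in VERCUR-CD (SD, n = 3). The highest value of each group was 7235, 7211, 7048 and 6959 in the same order, and the other 8 mice lay between 5886 and 6362, so the groups overlapped throughout. The averaged log2 fold change of CD against WT was 0.00 (interval −0.14 to 0.14).

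Clip3, whose product sits at the trans-Golgi network and the plasma membrane, had the highest level of the 9. Its normalized counts were 27587, 28494 and 28055 in VEH-WT and 26299, 27971 and 26370 in VEH-CD. They were 27048, 26932 and 26372 in VERCUR-WT and 24651, 26351 and 27022 in VERCUR-CD. The 3 VERCUR-WT mice lay below the 3 VEH-WT mice, while CD mice overlapped WT mice within each treatment. The lowest value, 24651, came from VERCUR-CD 1, which also had the lowest values of Clasp1 (4848), Clasp2 (9571), Mapre2 (12604) and Mapre3 (9344). That mouse had the highest striatal and oligodendrocyte marker sums of its group and the lowest total of normalized counts of all 12 mice. What part these have in its values was not tested. Over all genes, 5.25% had VERCUR-WT below VEH-WT without overlap, and limma gave Clip3 a log2 difference of −0.07 with an adjusted p of 0.999 there. For CD against WT the averaged log2 fold change was −0.05 (interval −0.13 to 0.02).

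Clip4, a further paralogue, had values of 2301, 2090 and 2310 in VEH-WT and of 2396, 2198 and 2252 in VEH-CD. It had values of 2192, 2131 and 2276 in VERCUR-WT and of 2391, 2235 and 2157 in VERCUR-CD. In each group the highest value came from the mouse with the highest striatal marker sum, which was 21810 in VEH-WT 3, 25086 in VEH-CD 1, 25455 in VERCUR-WT 3 and 18977 in VERCUR-CD 1. The same mice also had the highest oligodendrocyte marker sums of their groups, at 197295, 147625, 177355 and 149176 in that order. What part the striatal or oligodendrocyte markers have in the Clip4 values was not tested. Its averaged log2 fold change was 0.04 (interval −0.06 to 0.13), the highest among the 8 genes outside the deletion. All 4 groups overlapped.

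Per kb of exon, Clip2 made up 21.6% ± 1.00 (SD, n = 3) of the summed level of the 4 CLIP genes in VEH-WT, 12.04% ± 0.22 in VEH-CD, 21.4% ± 0.94 in VERCUR-WT and 11.1% ± 0.96 in VERCUR-CD. Clip3 made up 70.6% of it in VEH-WT and 78.8% in VEH-CD. The sum per kb stood at 85.8% of VEH-WT in VEH-CD, 95.5% in VERCUR-WT and 82.3% in VERCUR-CD. From VEH-WT to VEH-CD the mean per kb went from 2186 to 1044 for Clip2 and from 7127 to 6831 for Clip3, and both gaps enter the lower sum. From VERCUR-WT to VERCUR-CD it went from 2061 to 925 for Clip2 and from 6807 to 6609 for Clip3, of which Clip2 alone was called.

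The CLASP genes encode proteins that bind CLIPs and EBs and rescue shrinking ends. Clasp1 (chr1:118389058-118612678) had means of 5542 ± 244 in VEH-WT, 5302 ± 317 in VEH-CD, 5433 ± 268 in VERCUR-WT and 5393 ± 555 in VERCUR-CD (SD, n = 3), with an averaged log2 fold change of −0.04 (interval −0.16 to 0.08). Clasp2 (chr9:113741473-113919682), the more neuronal of the pair, had values of 10302, 10274 and 10732 in VEH-WT and of 9751, 10464 and 10007 in VEH-CD. Its values were 10595, 9702 and 10129 in VERCUR-WT and 9571, 12459 and 10093 in VERCUR-CD.

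The value of 12459 came from VERCUR-CD 2, the mouse that stood apart, and among the other 11 mice CD values overlapped WT values within each treatment. That mouse also held the highest value of Clasp1 (5959), Mapre1 (4741) and Mapre2 (15209). The averaged log2 fold change of Clasp2 was 0.01 (interval −0.12 to 0.14) with all mice and −0.05 without VERCUR-CD 2. What part the astrocyte markers of that mouse have in these values was not tested.

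The EB genes encode the proteins that find the growing end. Mapre1, or EB1, is used by most cells (chr2:153741274-153773310), Mapre2, or EB2, lies on chromosome 18, and Mapre3, or EB3, is enriched in neurons (chr5:30814641-30866106, outside the deletion). Mapre1 had means of 4012 ± 66.3 in VEH-WT, 3889 ± 132 in VEH-CD, 4005 ± 80.0 in VERCUR-WT and 4220 ± 461 in VERCUR-CD (SD, n = 3). The wide spread in the last group came from the single high mouse, VERCUR-CD 2.

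Mapre2 had means of 13953 ± 171 in VEH-WT, 13456 ± 579 in VEH-CD, 13639 ± 773 in VERCUR-WT and 13839 ± 1308 in VERCUR-CD (SD, n = 3). The averaged log2 fold change of CD against WT was 0.01 for Mapre1 (interval −0.09 to 0.12) and −0.02 for Mapre2 (interval −0.12 to 0.09). Both groups of CD mice overlapped their WT controls for both genes.

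Mapre3 had values of 10300, 10200 and 10120 in VEH-WT and of 10066, 9897 and 9548 in VEH-CD. It had values of 9984, 10528 and 9409 in VERCUR-WT and of 9344, 9515 and 9928 in VERCUR-CD. The VEH-CD mice lay just below the VEH-WT mice, the highest of them at 10066 against a lowest WT value of 10120, while the VERCUR groups overlapped. Mapre3 and Clip2 were the 2 members with VEH-CD below VEH-WT without overlap, an arrangement found for 11.4% of all genes. The log2 difference of Mapre3 was −0.05 in the VEH comparison (interval −0.17 to 0.06, limma adjusted p = 0.716) and −0.05 in the averaged one (−0.13 to 0.03).

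Across the 8 members outside the deletion, the averaged log2 fold changes lay between −0.05 (Mapre3) and 0.04 (Clip4), with a median absolute value of 0.0262 against 0.0668 over all genes tested. The latter includes genes of low level, whereas the mean level of these members was above that of 73.7% (Clip4) to 98.6% (Clip3) of genes. Genes of like level were not compared, so the gap does not show that the members are unusually stable. Their 95% intervals reached from −0.16 to 0.14, with the outermost ends at a fall of 10.3% and a rise of 10.5%. The outermost ends were −14.8% and 15.2% in the VEH comparison and −12.9% and 18.8% in the VERCUR comparison. In the VEH comparison the differences lay between −0.06 (Clasp1) and 0.03 (Clip4), and in the VERCUR comparison between −0.05 (Mapre3) and 0.07 (Mapre1). No rise of a paralogue or partner was detected in CD mice at this precision, and smaller changes cannot be seen with 3 mice a group. Clip2 was the 1 member for which all 6 CD mice lay below all 6 WT mice, against 0.473% of all genes, and the 1 member with VERCUR-CD below VERCUR-WT without overlap, against 3.83%.

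**Figure D3:**
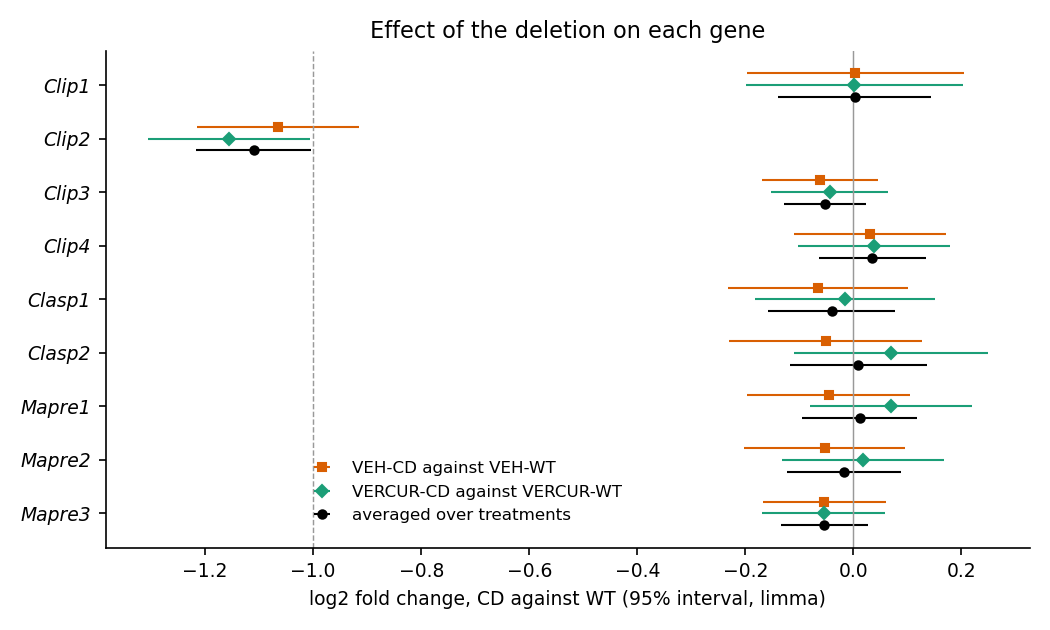
log2 fold change of CD against WT for each of the 9 genes (x axis), with 95% intervals from limma. Squares are VEH mice, diamonds VERCUR mice and black circles the average over treatments. Clip2 sits near −1 in all 3 estimates (dashed line, 50% of WT), and the intervals of the other 8 genes all include 0.

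The co-treatment comparisons asked whether curcumin with verapamil moved these genes, in WT mice and in CD mice. Members called numbered 0 of 9 in VERCUR-CD against VEH-CD, in VERCUR-WT against VEH-WT, in the treatment average and in the interaction of genotype and co-treatment. Over all genes limma called 0% in each, limma voom called 0 as well, and 605 (3.54%), 893 (5.22%), 506 (2.96%) and 1035 genes (6.05%) had an unadjusted p under 0.05 in these comparisons. Of the members, Clip2 alone had such a p, in VERCUR-CD against VEH-CD and in the treatment average.

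Clip2 was lower in the 3 VERCUR-CD mice than in the 3 VEH-CD mice, without overlap, as 4.63% of all genes were. Its log2 difference was −0.18 (interval −0.33 to −0.03), with an unadjusted p of 0.0253 and an adjusted p of 0.867 by limma, so it did not pass the threshold. Without VERCUR-CD 2, whose Clip2 value was the lowest of all, it was −0.13. The 18 other deleted genes had differences below 0 in the same comparison, with a median of −0.08, and without that mouse 16 of the 18 did.

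In WT mice the log2 difference of Clip2 was −0.08 (interval −0.23 to 0.07, limma adjusted p = 0.999). The interaction, which tests whether the genotype difference of Clip2 changed with co-treatment, was −0.09 (interval −0.30 to 0.12, limma adjusted p = 0.846). Of the other 8 members, VERCUR-CD differed from VEH-CD by −0.05 (Clip3) to 0.11 (Mapre1), and VERCUR-WT from VEH-WT by −0.07 (Clip3) to −0.00 (Mapre1). The highest of these rests on the VERCUR-CD 2 mouse, without which Mapre1 stood at 0.03.

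Per kb of exon, which makes genes comparable, the order of levels in VEH-WT was led by Clip3 with 7127 normalized counts per kb. Mapre3 followed with 2951, Clip2 with 2186 and Mapre2 with 1368. Lower levels were those of Clasp2 with 679, Clip1 with 526, Mapre1 with 514, Clip4 with 262 and Clasp1 with 254. Among neighbours in this order, Clip1 and Mapre1 overlapped between mice, as did Clip4 and Clasp1, and the other 6 neighbouring pairs did not. Exon length was taken as the union of all annotated exons, so a gene with long exons that cortex does not use is understated.

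The order was kept in the other groups except at 2 places. Clip2 stood at place 3 in both WT groups and at place 4, below Mapre2, in both CD groups. In VEH-CD its level was 1044 ± 45.03 per kb and in VERCUR-CD 925 ± 56.5 (SD, n = 3). Clip1 and Mapre1, whose levels overlapped, changed places in VERCUR-CD. The plot of levels per kb shows the fall of Clip2 through the level of Mapre2.

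**Figure D4:**
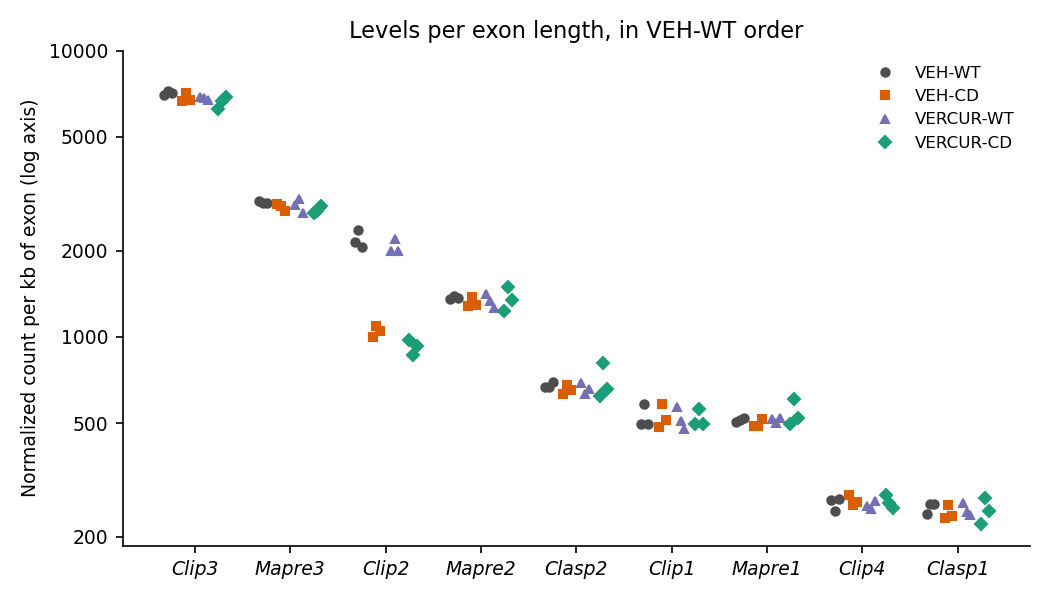
Normalized counts per kb of exon (y axis, log scale) for the 9 genes in the order of their VEH-WT means. Points are single mice, coloured by group. Clip2 lies above Mapre2 in the 6 WT mice and below it in the 6 CD mice. By group means, of the other genes Clip1 and Mapre1 alone change places, in VERCUR-CD. In single mice the order varies more, with Clip1 above Mapre1 in 4 mice and Clip4 above Clasp1 in 8 mice.

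The genes most like Clip2 over the 12 mice were sought by the root mean square difference of log2 levels, each gene relative to its VEH-WT mean. They were Limk1 (0.108), a kinase gene that acts on cofilin and actin, then Bud23 (0.122), an rRNA methyltransferase gene, Tbl2 (0.133), Bcl7b (0.135) and Abhd11 (0.135), all of them inside the deletion. The other members came far behind, from place 3365 (Clip3) to place 8971 (Clip4). Among the 8 members outside the deletion, the closest pair was Clasp1 and Mapre2 (0.031), followed by Clip3 and Mapre3 (0.045) and by Clasp2 and Mapre1 (0.050). These distances are descriptions over mice that share libraries and depth.

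Other genes of the microtubule were read from lists chosen by role. Of 28 other plus-end tracking and anchoring genes, 0 were called in the averaged comparison of CD against WT and 3 had an unadjusted p under 0.05, a share to be read against 9.64% of all genes. Of them, 4 had a positive and 24 a negative log2 fold change, with a median of −0.04 against −0.00 over all genes. Without VERCUR-CD 2 the split was the same, 4 and 24, and the median −0.10. The lowest was Nav1, a neuron navigator gene, at −0.18 (SE 0.07, limma adjusted p = 0.431), and the highest Gtse1, a gene of mitotic microtubules, at 0.09 (SE 0.20, limma adjusted p = 0.945). Kif18b and Kif2c, on the same list, were not analysed here.

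Of 6 other genes with a CAP-Gly domain, 0 were called, with Tbce, a tubulin folding cofactor, at 0.11 and Cep350, a centrosomal gene, at −0.16. Of 22 genes of lattice and minus-end binding proteins, 0 were called, with Stmn4, a stathmin gene, at 0.11 and Dclk1, a doublecortin-like kinase gene, at −0.13. In these lists 3 of 6 and 6 of 22 genes were positive, and the medians were 0.00 and −0.03.

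Tubulin genes also gave 0 calls of 14, with 5 positive and 9 negative and a median of −0.02. Without VERCUR-CD 2 the split was 7 and 7 and the median 0.00. Tuba8, an alpha-tubulin gene, was the highest at 0.36 (SE 0.10, limma adjusted p = 0.251). Its mean normalized counts were 832 ± 113 in VEH-WT, 1023 ± 189 in VEH-CD, 733 ± 116 in VERCUR-WT and 976 ± 42.7 in VERCUR-CD (SD, n = 3). Tubb6 was the lowest at −0.07. Tubb2b, a beta-tubulin gene named after its values were seen, had the smallest adjusted p of the list, with a log2 fold change of 0.26 and a limma adjusted p of 0.202. With the replicate number as a block its adjusted p was 0.0226, which made it the 1 tubulin gene called under any alternative run.

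CLIP proteins favour tyrosinated tubulin, and 15 genes of tubulin tyrosination, acetylation and severing were read for that reason. Of these 0 were called and 2 had an unadjusted p under 0.05. Katna1, a catalytic subunit of katanin, was the lowest at −0.25 (SE 0.08, limma adjusted p = 0.316) and Hdac6, the tubulin deacetylase gene, the highest at 0.12 (SE 0.05, limma adjusted p = 0.431). Matcap1 was not analysed here.

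**Figure D5:**
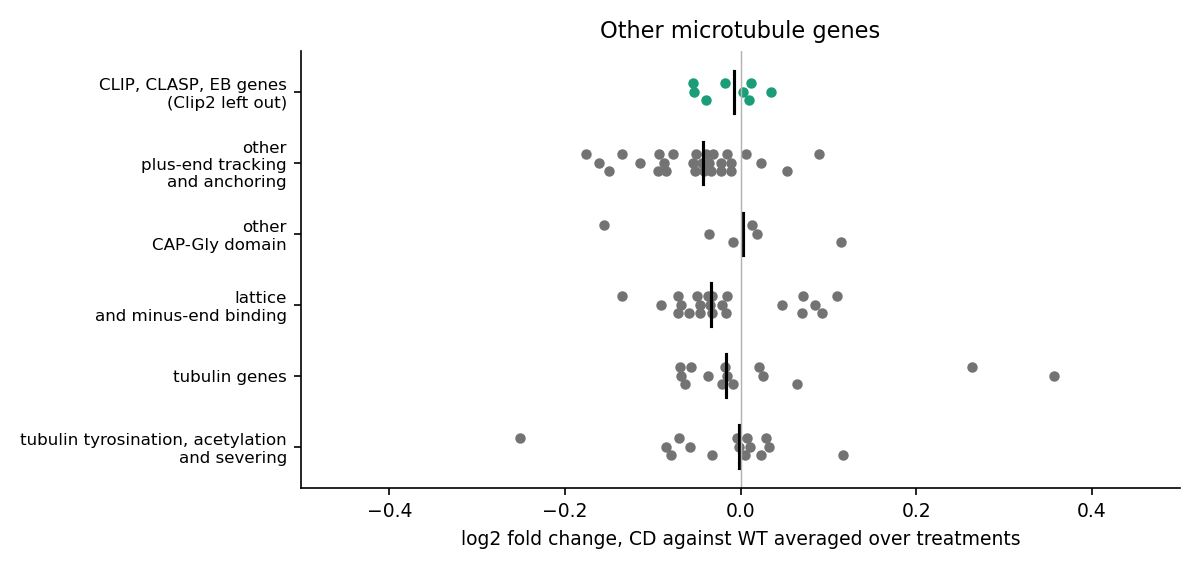
log2 fold change of CD against WT averaged over treatments (x axis) for the 8 member genes outside the deletion and for 5 lists of other microtubule genes. Points are genes and black bars list medians. Medians lie between −0.04 and 0.00, the most distant point is Tuba8 at 0.36, and 0 of the genes drawn were called.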

How the data were processed

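The authors sequenced libraries made from total RNA of cortex from 12 mice, mRNA libraries by the methods. There were 3 mice from each combination of genotype (WT or CD) and treatment (VEH or VERCUR), and the groups were assigned from the sample labels. Per the submitters' processing notes, FastQC and STAR 2.5.3a were used with GRCm38. The counting program and its use of strand are not given in the sources used here. The authors deposited normalized counts per gene and mouse, which are not raw counts. In each mouse 100% of low values (at most 200 reads) were whole multiples of 1 step within 0.1 of a read, and the reads counted followed from that step. Counting error was not separated from the spread between mice. Of the deposited tables, a pair that give expression relative to VEH-WT for genes chosen by the authors were not used.

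limma 3.58.1 in R 4.3.3 with an intensity trend was fitted to log2(normalized count + 1) over the 17111 of 17202 genes with a mean of at least 10, with 4 group means and all 12 mice in 1 fit. Fold changes are on that scale. P-values were adjusted by Benjamini-Hochberg over all genes tested, and adjusted p under 0.05 was called. The code of the fit was run on simulated counts with the same dispersion for all genes and no mouse that stood apart. That checks the code, not how well the fit suits these mice. Nothing in the labels says that mice of a group came from separate litters or cages, and p-values measure the spread between these mice.

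The 9 members and all gene lists were chosen with earlier results of these data known. The text names the members, the 5 genes most like Clip2, genes that overlap a member, and the highest and lowest gene of each list where none was called. Coordinates and exon lengths came from GENCODE M21, where 17181 gene IDs were found, and sequences from RefSeq (GRCm38.p6). Alternatives covered the pseudocount, the filter, the normalization, the groups in the fit, the trend, a replicate block, limma voom and leaving out each mouse.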

Additional observations from a re-analysis of the deposited data

How the results depend on the processing

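Clip2 stayed past the threshold in the 3 genotype comparisons, and the other 8 members stayed short of it in all 7, under every alternative run. Leaving out each mouse in turn gave Clip2 log2 fold changes from −1.11 to −1.01 (VEH), −1.20 to −1.11 (VERCUR) and −1.13 to −1.08 (averaged). Over all alternatives run, the highest limma adjusted p of Clip2 was 0.000153, 0.00109 and 3.55e-06 in the same order. The CD minus WT difference of Clip2 from the median of its deleted neighbours ranged from −0.15 to −0.11, with exact permutation p from 0.005 to 0.035.

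Several members near 0 changed sign without being called. With single mice left out, the averaged log2 fold change ran from −0.034 to 0.041 for Clip1, −0.048 to 0.047 for Clasp2, −0.031 to 0.042 for Mapre1 and −0.053 to 0.015 for Mapre2, which was 0.0066 under quantile normalization. For VEH-CD against VEH-WT it ran from −0.070 to 0.081 for Clip1 and −0.016 to 0.058 for Clip4. For VERCUR-CD against VEH-CD it ran from −0.083 to 0.051 for Clip1, −0.055 to 0.022 for Clip4, −0.053 to 0.095 for Clasp1, −0.035 to 0.16 for Clasp2 and −0.033 to 0.10 for Mapre2, and with equal totals Clasp1 was −0.0068. The cause was not tested.

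As a set, same-numbered mice did not deviate together (18 pairs, correlation −0.35 to 0.27, median 0.02). Of these pairs 4 had a correlation over 0.1, and 1 mouse was nearest to its own number. Nothing in the labels says that the numbers pair the mice, and with 3 mice a group these correlations cannot settle it. The fit with the replicate block called 43, 26 and 57 genes against 44, 25 and 65 in the 3 genotype comparisons (VEH, VERCUR, averaged) and the same 1 member, Clip2. The block also called Tubb2b (limma adjusted p 0.0226 against 0.202). Over all genes, leaving out single mice gave 24 to 84 calls for VEH, with 24 without VEH-CD 1, VEH-CD 3 or VEH-WT 2, 28 without VEH-WT 3 and 84 without VERCUR-CD 2, and 40 to 79 averaged, with 40 without VERCUR-CD 3 and 43 without VEH-WT 2.

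The planned count models on the recovered reads were not run, since the values were kept as normalized counts. limma voom on those reads, chosen after seeing the data, gave 39, 29 and 63 calls. Each group holds 3 mice, which limits what can be detected.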

Other observations

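Other microtubule genes were also read within each treatment, where 0 were called by limma. Of the 28 other plus-end tracking and anchoring genes, 4 were positive and 24 negative for VEH-CD against VEH-WT (median log2 −0.13), and 19 were positive and 9 negative for VERCUR-CD against VERCUR-WT (median 0.04). Without VERCUR-CD 2, the mouse with the highest astrocyte marker sum, the second split was 6 positive and 22 negative (median −0.07), the same direction as in the VEH mice. The 5 oligodendrocyte markers were all negative in the VEH comparison (median −0.19) and all positive in the VERCUR comparison (median 0.23), and 0 of them were called.

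Of 14 tubulin genes, 12 were positive for VEH-CD against VEH-WT (median log2 0.08) and 2 for VERCUR-CD against VERCUR-WT (median −0.09). Without VERCUR-CD 2 the latter was 3 of 14 (median −0.05). The red blood cell markers were positive for 5 of 5 genes in the VEH comparison (median 0.36) and for 1 of 5 in the VERCUR comparison (median −0.17), with 0 called. The other CAP-Gly domain genes were 3 positive and 3 negative in both comparisons. Positive genes numbered 10 and 13 of 22 among those of lattice and minus-end binding, and 5 and 10 of 15 among those of tubulin tyrosination, acetylation and severing. The interaction of genotype and co-treatment was called for 0 genes of these 5 lists. For the other marker lists, the numbers of positive genes follow, for VEH and then VERCUR. They were 1 and 4 of 5 for astrocytes, 3 and 4 of 5 for microglia, and 3 and 1 of 5 for striatal neurons. They were 3 and 2 of 6 for excitatory and 0 and 1 of 6 for inhibitory neurons. Of 4 each, they were 3 and 3 for endothelial cells, 1 and 1 for meningeal fibroblasts and 1 and 2 for choroid plexus. Marker fold changes without VERCUR-CD 2 are not given here. Whether a list as a whole differed between the treatments, and the part of the markers in these values, were not tested.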
